A study of Caenorhabditis elegans with 4 samples.

Results

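The gene set described here holds 10 genes that encode regulators of the *C. elegans* germline and of the early embryo: the Notch receptor gene *glp-1* and the genes for the RNA-binding proteins GLD-1, OMA-1, OMA-2, PUF-5, MEX-3, MEX-5, MEX-6, POS-1 and PIE-1. The genes were picked by name and sequence name, with no threshold on a measured value, from the 46745 sequence names of the count table, and each level is the sum over the listed transcripts of that gene. Whole wild-type animals (Bristol strain N2) had been given *E. coli* OP50, the usual laboratory food, or the lactic acid bacterium *L. paracasei* subsp. *paracasei* 2004, starting 3 days after hatching, which the methods call the first day of adulthood, and lasting 3 days. 2 samples were sequenced for each food. The labels place both foods in S basal medium, whereas the methods describe plates. A sample is a pool of whole animals, with any embryos inside them. Neither source says whether the samples of a food came from separate cultures, so the tests measure only the spread between these samples, which may be technical.

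As background, the adult hermaphrodite gonad is a tube in which germ cells divide at the distal end, enter meiosis, and grow into oocytes at the proximal end. GLP-1 receives a Notch signal there that keeps distal cells dividing, and GLD-1 represses translation of many maternal mRNAs as the cells pass through meiosis. Transcription stops in the growing oocyte, and the last steps before fertilization and the first divisions after it run on stored mRNA. Oocyte proteins such as OMA-1, OMA-2 and PUF-5, and embryonic proteins such as MEX-5, MEX-6, POS-1 and PIE-1, decide which of those mRNAs are translated and in which cells.

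All 10 genes were among the 12505 that passed the filter on low counts, 0.5 CPM (counts scaled to a common library total) or more in 2 or more samples. None was called different between the foods at the thresholds of the study, an adjusted p-value under 0.1 with a fold change over 2. Over all tested genes, 22.4% were called, 7.55% higher and 14.8% lower in animals on strain 2004. Counts summed per gene were compared by edgeR's quasi-likelihood method, with Benjamini-Hochberg adjustment over all tested genes. It gave 1 of the 10 genes an adjusted p-value under 0.1 at any fold, beside 49.1% of all tested genes. DESeq2 and limma-voom also called 0 of the 10 at both thresholds, with 2 and 1 adjusted p-values under 0.1 at any fold. The log2 fold changes of the 10 genes lay between 0.0086 and 0.50, with a median of 0.12, beside a median of -0.028 over all tested genes. They were above 0 for 10 of the 10 genes and for 48.6% of all tested genes. When libraries were scaled by germline markers, which moved the median of all tested genes by -0.28, 2 of the 10 were above 0. Without OP50 replicate 2, 4 of the 10 were above 0, and without 2004 replicate 2, 7 were. The 95% interval of the difference lay within 2-fold either way for 10 of the 10 genes, as it did for 46.2% of all tested genes. For 9 of the 10 genes that interval included no difference.

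Levels are given below as normalized CPM, obtained by dividing counts by the library total times its TMM scaling factor. Totals ran from 44548901 to 50504029 counts a sample. The 10 genes together took 0.832% and 0.691% of all counts in OP50 replicates 1 and 2, and 0.883% and 0.909% in 2004 replicates 1 and 2. On the normalized scale their sum was 8978 and 6643 on OP50 against 8309.6 and 9322 on 2004, so the foods overlapped. Gene by gene, both 2004 samples were above both OP50 samples for 3 of the 10 (36.1% of all tested genes) and below them for 0 (37.4%). Without TMM scaling, on CPM of the library total alone, both were above for 6 of the 10 (37.5% of all tested genes). OP50 replicate 2 was the low sample. Its normalized CPM was below that of OP50 replicate 1 for 10 of the 10 genes, by 1.23-fold for *oma-1* to 1.45-fold for *puf-5*, as it was for 46.0% of all tested genes. In bulk samples of this kind, fewer germ cells or embryos per animal and less RNA per cell cannot be told apart.

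**Figure D1:**
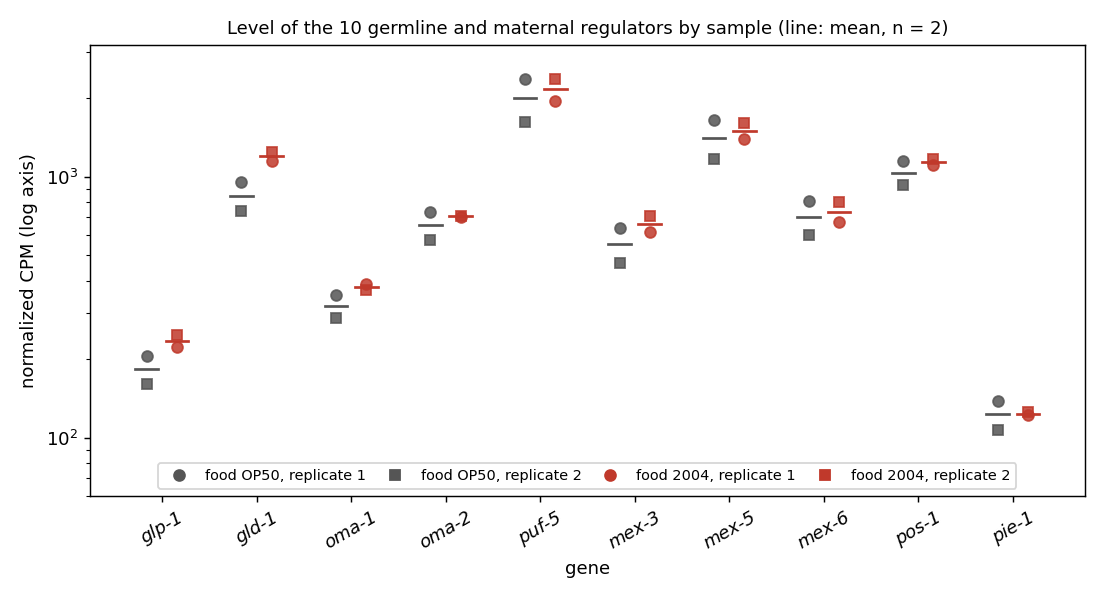
Normalized CPM (log axis) of each of the 10 genes in each sample, grey for food OP50 and red for food 2004, circles for replicate 1 and squares for replicate 2, with a line at the mean of the 2 samples. The red points of *gld-1*, *glp-1* and *oma-1* lie above both grey points, and OP50 replicate 2 is the lowest sample for every gene shown.

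The largest difference in the set was in *gld-1* (T23G11.3), which encodes a KH-domain repressor of translation needed for germ cells to complete meiosis as oocytes. The gene lies on chromosome I of WBcel235, from 7695681 to 7698222 on the + strand, as are the other 9 genes. It had 951 and 738 normalized CPM on OP50 against 1151 and 1244 on 2004. Both 2004 samples were above both OP50 samples. The means were 844 ± 151 (SD, n = 2) and 1197 ± 65.4 (SD, n = 2). The log2 difference was 0.50 with an SE of 0.22, a 1.42-fold difference with a 95% interval of 1.01 to 1.99, and the adjusted p-value was 0.0903 (edgeR). This passed the threshold on the p-value, as 49.1% of all tested genes did, but not that on the fold change. Over the alternatives its adjusted p-value ran from 0.00124 to 0.464, apart from glmTreat, which tests against a 2-fold difference, and without OP50 replicate 2 it was 0.165 with a log2 fold change of 0.33.

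*glp-1* (F02A9.6, chromosome III, 9092241 to 9099698) encodes the Notch receptor of germline stem cells, whose maternal mRNA is also translated in early embryos. It had 206 and 161 normalized CPM on OP50 against 222 and 247 on 2004. The foods did not overlap, and the gap between them was smaller than the gap between the OP50 samples. The means were 183 ± 31.9 (SD, n = 2) and 234.7 ± 17.7 (SD, n = 2), with a log2 fold change of 0.36 (SE 0.17) and an adjusted p-value of 0.111 (edgeR). Its 95% interval ran from 0.992-fold to 1.65-fold. An antisense gene, ZK507.1, shares 18 exonic bases with *glp-1* and had at most 77 counts in any sample, against at least 8454 for *glp-1*.

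OMA-1 and OMA-2 are a pair of CCCH zinc-finger proteins that act redundantly in oocyte maturation and repress their bound mRNAs in oocytes. *oma-1* (C09G9.6, chromosome IV, 8888976 to 8890999) had 354 and 288 normalized CPM on OP50 against 389 and 369 on 2004, a log2 difference of 0.24 with an SE of 0.17 (edgeR, adjusted p = 0.290). Its foods did not overlap. *oma-2* (ZC513.6, chromosome V, 8029439 to 8031214) had 729 and 571 on OP50 against 698 and 709 on 2004, a log2 difference of 0.11 with an SE of 0.20 (edgeR, adjusted p = 0.670). Both of its 2004 samples lay between the OP50 samples. Because reads could be shared between the pair, their counts were also summed before the fit. The sum had a log2 difference of 0.16 with an SE of 0.22 (edgeR, adjusted p = 0.585), with a 95% interval of 0.801-fold to 1.55-fold.

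PUF-5 is a Pumilio-family repressor of oocyte mRNAs, and its mRNA had the highest mean normalized CPM of the set, although per kilobase of exon it was above *pos-1* in only 2 of 4 samples. *puf-5* (F54C9.8, chromosome II, 8575541 to 8577787) had 2359.7 and 1622 normalized CPM on OP50 against 1951 and 2362 on 2004. The OP50 samples differed more from each other than the foods did, at means of 1991 ± 521 (SD, n = 2) and 2156 ± 290.5 (SD, n = 2). Its log2 difference came to 0.12 with an SE of 0.27 (edgeR, adjusted p = 0.759).
MEX-3 is a KH-domain repressor that acts in oocytes and early embryos, where it keeps *pal-1* mRNA silent in anterior cells. *mex-3* (F53G12.5, chromosome I, 127285 to 134270) had 636 and 468 normalized CPM on OP50 against 611 and 705 on 2004, so the foods overlapped. Its log2 difference came to 0.25 with an SE of 0.21 (edgeR, adjusted p = 0.355).

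Products of the remaining members sort fates between the anterior and posterior cells of the early embryo. MEX-5 and MEX-6 are closely related CCCH-finger proteins enriched in the anterior cytoplasm. *mex-5* (W02A2.7, chromosome IV, 13353723 to 13356104) had 1648 and 1164 normalized CPM on OP50 against 1391 and 1598 on 2004. *mex-6* (AH6.5, chromosome II, 9524174 to 9526359) had 809 and 596 on OP50 against 669 and 797 on 2004. In both genes the 2004 samples lay between the OP50 samples. The log2 fold changes were 0.088 with an SE of 0.25 (edgeR, adjusted p = 0.799) for *mex-5* and 0.061 with an SE of 0.22 (edgeR, adjusted p = 0.839) for *mex-6*. Summed, the pair had a log2 fold change of 0.079 (adjusted p = 0.832, edgeR) and a 95% interval of 0.700-fold to 1.59-fold.

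POS-1 is a CCCH-finger protein required for posterior fates, and PIE-1, of the same class, keeps transcription off in the germ lineage of the embryo. *pos-1* (F52E1.1, chromosome V, 8414086 to 8415254) had 1146 and 927 normalized CPM on OP50 against 1105 and 1165 on 2004, a log2 difference of 0.13 with an SE of 0.22 (edgeR, adjusted p = 0.652). The foods overlapped, with one 2004 sample inside the OP50 range. *pie-1* (Y49E10.14, chromosome III, 12426893 to 12429195) had 139 and 107 on OP50 against 122 and 126 on 2004. The 2004 samples of *pie-1* lay within the range of the OP50 samples. Its means were 123 ± 22.3 (SD, n = 2) and 124 ± 2.67 (SD, n = 2), with a log2 difference of 0.0086 with an SE of 0.15 (edgeR, adjusted p = 0.968). The 95% interval for *pie-1*, 0.797-fold to 1.27-fold, was the narrowest of the set. An antisense gene, *snr-6*, shares 24 exonic bases with *pie-1* and had between 7534 and 10142 counts a sample, above the 5639 to 6005 of *pie-1*, so a part of either count could belong to the other if the counting did not use strand.

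**Figure D2:**
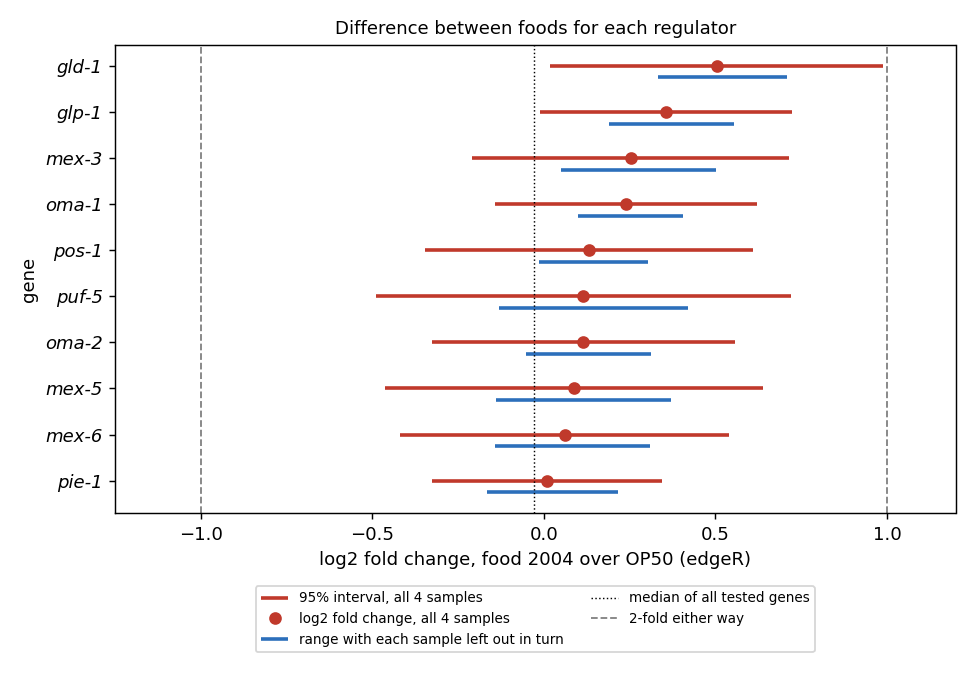
Log2 fold change of each gene, food 2004 over OP50, with its 95% interval from edgeR (red) and the range of the estimate when each of the 4 samples was left out in turn (blue). Every red interval lies between the dashed lines at 2-fold, and only that of *gld-1* lies wholly above 0. The dotted line is the median of all tested genes.

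Direction held under every sample left out in turn for 4 genes, *gld-1*, *glp-1*, *oma-1* and *mex-3*. It changed for the other 6, all of which had a log2 fold change below 0 without OP50 replicate 2. Of these, *puf-5*, *mex-5* and *mex-6* were also below 0 without 2004 replicate 2, where 7 of the 10 genes were above 0. Without OP50 replicate 2 the median of the 10 genes was -0.033, and without OP50 replicate 1 it was 0.39. The scale also mattered. When the samples were scaled by the summed counts of 15 germline marker genes in place of TMM, 2 of the 10 genes, *gld-1* and *glp-1*, stayed above 0, at 0.24 and 0.09 on the log2 scale, and the other 8 were below 0. That scale moved the median of all tested genes by -0.28, to -0.31, beside a median of -0.14 for the 10 genes. Under TMM, 5 of the 15 markers were higher at an adjusted p-value under 0.1 and 1 was lower (edgeR), beside 23.9% of all tested genes higher.

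Ratios of counts within a library do not depend on how libraries are scaled. With 2 samples a food, an exact permutation test cannot give a p below 0.333, so the ratios, chosen after their values were seen, are a description. The ratio of *gld-1* to *pie-1* was 6.85 and 6.88 on OP50 against 9.44 and 9.89 on 2004. The foods were further apart than the replicates, although the normalized CPM of *gld-1* differed 1.29-fold between the OP50 samples. The ratio of *glp-1* to *pie-1* was 1.48 and 1.499 on OP50 against 1.82 and 1.97 on 2004. The 2004 samples were the higher ones again.

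The ratio of *gld-1* to *glp-1* was 4.62 and 4.59 on OP50 against 5.18 and 5.03 on 2004, a smaller difference of 1.11-fold. For the paralogs, the ratio of *oma-1* to *oma-2* was 0.485 and 0.505 on OP50 against 0.557 and 0.520 on 2004. The ratio of *mex-5* to *mex-6* was 2.04 and 1.95 on OP50 against 2.08 and 2.01 on 2004, with the foods overlapping. Hence the counts assigned to *mex-5* and *mex-6* kept nearly the same proportion in all samples. Reads could be shared between this pair too, and the effect of that on the ratio was not tested. *gld-1* made up 10.6% and 11.1% of the summed normalized CPM of the set on OP50 against 13.9% and 13.3% on 2004.

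**Figure D3:**
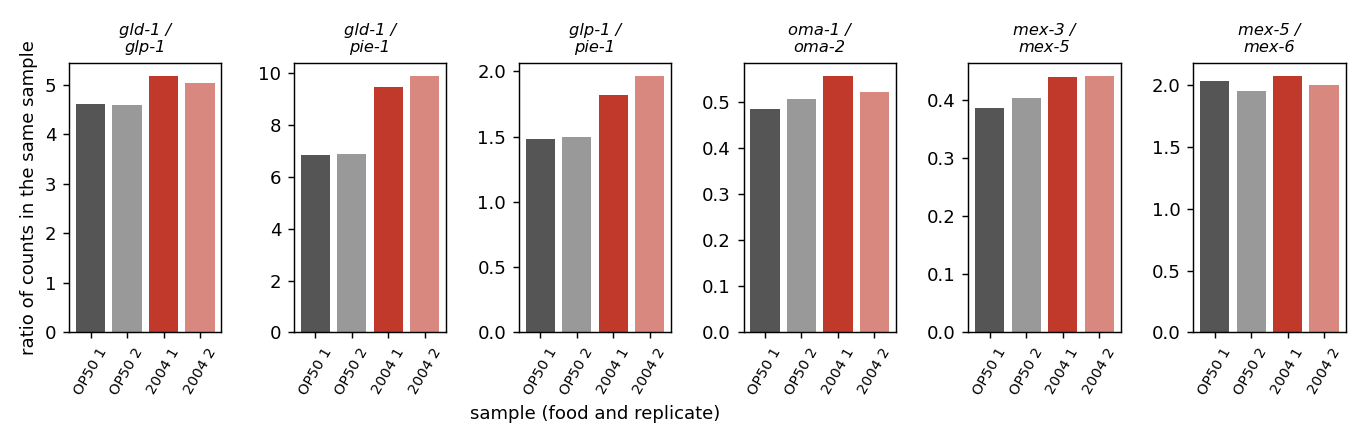
Ratio of counts for 6 pairs of the genes within each sample, grey bars for OP50 replicates 1 and 2 and red bars for 2004 replicates 1 and 2. The ratios of *gld-1* and *glp-1* to *pie-1* are higher in both 2004 samples, whereas the ratio of *mex-5* to *mex-6* runs from 1.95 to 2.08 without separating the foods.

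Per kilobase of exon, the members spanned a wide range of levels. Mean normalized CPM per kilobase over the 4 samples was highest for *puf-5* (1002) and *pos-1* (972), followed by *mex-5* (734), *gld-1* (460.1), *oma-2* (438), *mex-6* (379), *mex-3* (296), *oma-1* (194), *pie-1* (111) and *glp-1* (48.3). The lowest of them, *glp-1*, was still at the 81.5th percentile of all tested genes, and *puf-5* was at the 98.8th. Neighbours in this order were not always separated. *puf-5* was above *pos-1* in 2 of 4 samples, and *gld-1* was above *oma-2* in 2 of 4 samples, both of them 2004 samples in the latter case. The other neighbours kept their order in 4 of 4 samples. Exon lengths are those of the Ensembl annotation used here, which lists 1 transcript of *gld-1* where the deposited table lists 3, so the lengths behind these levels may differ from the authors'.

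The table listed 17 transcripts for the 10 genes, and 7 genes had a single listed transcript. For *gld-1*, all counts were assigned to T23G11.3.3, with 0 counts for the other listed forms. *mex-3* was read mainly from transcript F53G12.5a, which took 92.7% and 87.0% of the gene's counts on OP50 against 93.5% and 93.4% on 2004. F53G12.5b had 1901 and 3179 counts on OP50 against 1930 and 2110 on 2004, and the sample that stood apart was OP50 replicate 2. For *pie-1*, Y49E10.14a.1 took between 57.8% and 60.8% of the counts in each sample and Y49E10.14a.2 took nearly all of the rest. Of the 17 transcripts, 12 were tested, and 0 were called at both thresholds (edgeR), where 11.4% of all tested transcripts were. No member transcript had an adjusted p-value under 0.1 in that fit, where 17.5% of all tested transcripts did. The common dispersion of that fit was 0.254, against 0.0314 for genes. The 1 form of *gld-1* with counts had an adjusted p-value of 0.176 there (edgeR), against 0.0903 for the gene.

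Genes that act with the 10 regulators were taken from lists grouped by role. Their counts are read against 7.55% of all tested genes called higher and 14.8% called lower, and counts at an adjusted p-value under 0.1 with any fold against 49.1% in either direction and 23.9% higher. In the Notch and stem cell list, which holds the ligand gene *lag-2*, the DNA-binding effector gene *lag-1*, the targets *sygl-1* and *lst-1*, and the PUF genes *fbf-1* and *fbf-2*, 0 of 9 tested genes passed both thresholds. The median log2 fold change was 0.41, and it ran from 0.19 without OP50 replicate 2 to 0.60 without OP50 replicate 1. 4 of the 9 had an adjusted p-value under 0.1, all of them higher, beside 49.1% of all tested genes in either direction and 23.9% higher. Among them was *lag-1* at 0.53 with an SE of 0.13 (edgeR, adjusted p = 0.0102). The direct GLP-1 targets *sygl-1* and *lst-1* had log2 fold changes of -0.17 and 0.30, with adjusted p-values of 0.435 and 0.132 (edgeR).

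Among 14 regulators of meiotic entry and germline sex, 3 rose and 1 fell, with a median of 0.26. The 3 were *gld-2* and *gld-4*, which encode cytoplasmic poly(A) polymerases, and *cpb-3*, which encodes a CPEB-family RNA-binding protein. *gld-2* had 118 and 95.7 normalized CPM on OP50 against 221 and 216 on 2004, a log2 difference of 1.04 with an SE of 0.15 (edgeR, adjusted p = 0.000608). *gld-4* had 173 and 134 on OP50 against 325 and 324 on 2004, and *cpb-3* had 76.2 and 67.6 on OP50 against 145 and 145 on 2004. These 3 genes stood near the 2-fold line, and without OP50 replicate 2 their log2 fold changes were 0.89, 0.91 and 0.92, below it. *nos-3*, whose product acts with GLD-1 in meiotic entry, had a log2 fold change of 0.96 (adjusted p = 0.00108, edgeR), and *fog-2*, whose product binds GLD-1, had 0.07 (adjusted p = 0.746, edgeR).

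The gene that fell was *fog-3*, which promotes the sperm fate. It had 36 and 45 counts on OP50 against 17 and 9 on 2004 (log2 difference -1.65, SE 0.56, edgeR adjusted p = 0.0389). With DESeq2 its adjusted p was 0.113, and without 2004 replicate 2 it was 0.179, in a range of 0.0279 to 0.376 over the alternatives. *fog-1*, which acts in the same decision, had a log2 fold change of -0.72 (adjusted p = 0.00411, edgeR). Both genes are low in these libraries compared with the members. The sperm markers were low too. Of 15, 10 did not reach the filter, 2 of the 5 tested were called lower (*spe-11* and *spe-6*), and 5 had 0 counts in every library (*spe-8*, *spe-12*, *gsp-3*, *msp-3* and *msp-142*). Of the other 3 tested, *spe-15* was lower at -0.70 (adjusted p = 0.0135, edgeR), and 2 lay the other way, *spe-41* with a log2 fold change of 0.49 (adjusted p = 0.0722, edgeR) and *spe-4* with 17 and 0 counts on OP50 against 46 and 35 on 2004 (adjusted p = 0.104, edgeR). *spe-11* had 66 and 86 counts on OP50 against 0 and 9 on 2004. The filter was reached by *spe-11* and *fog-3* in the OP50 samples alone, and by *spe-4* in the 2004 samples alone. The summed normalized CPM of the sperm markers was 52.7 and 46.2 on OP50 against 34.9 and 44.6 on 2004, and the part of sperm RNA in the *fog-3* result was not tested.

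Of 13 tested RNA regulators of oocytes and embryos, 2 rose and 0 fell, with a median of 0.39 that ran from 0.22 without OP50 replicate 2 to 0.54 without OP50 replicate 1. They were *ifet-1*, which encodes a translational repressor related to the eIF4E transporter, and *car-1*, which encodes an LSm-domain protein of germline RNA granules. *ifet-1* had 443 and 325 normalized CPM on OP50 against 919 and 938 on 2004, a log2 difference of 1.27 with an SE of 0.21 (edgeR, adjusted p = 0.00118). *car-1* had 830 and 484 on OP50 against 1475 and 1656 on 2004, a log2 difference of 1.25 with an SE of 0.27 (edgeR, adjusted p = 0.00534), which was 0.92 without OP50 replicate 2. *ifet-1* and *car-1* were higher in both 2004 samples than in both OP50 samples. *cgh-1*, an RNA helicase gene of the same granules, had a log2 fold change of 0.72 and *lin-41*, which acts in oocytes beside the OMA proteins, had 0.83, with adjusted p-values of 0.0386 and 0.0117 (edgeR) and less than a 2-fold difference. In contrast, the PUF genes of oocytes had log2 fold changes close to that of *puf-5*, at 0.0049 for *puf-3*, -0.029 for *puf-6*, 0.13 for *puf-7* and 0.13 for *puf-11*, and adjusted p-values of at least 0.630 (edgeR). PUF genes include similar copies, so reads may have been shared among them.

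None of the 12 polarity and oocyte-to-embryo kinase genes passed both thresholds (edgeR). Their median was 0.26, and 0.12 without OP50 replicate 2. 4 of the 12 had an adjusted p-value under 0.1 with a smaller fold, all higher, beside 23.9% of all tested genes higher at any fold, as *kin-19* did with a log2 fold change of 0.57. *par-1*, whose kinase acts on MEX-5, had 0.14 (adjusted p = 0.495, edgeR), and *mbk-2*, whose kinase marks OMA-1 for degradation, had 0.21 (adjusted p = 0.360, edgeR). None of the 13 maternal mRNAs listed as targets of these proteins passed both thresholds either (edgeR). Their median of 0.13 was 0.018 without 2004 replicate 1 and 0.068 without OP50 replicate 2. Among them were *pal-1*, a MEX-3 target, at -0.18, *nos-2*, at -0.06, and *zif-1*, an OMA-1 target, at 0.13. *rme-2*, the yolk receptor gene and a GLD-1 target, had a log2 difference of 0.73 with an SE of 0.26 (edgeR, adjusted p = 0.0429). 2 of the 13, *rme-2* and *tra-2*, had an adjusted p-value under 0.1, both higher, beside 23.9% of all tested genes higher.

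**Figure D4:**
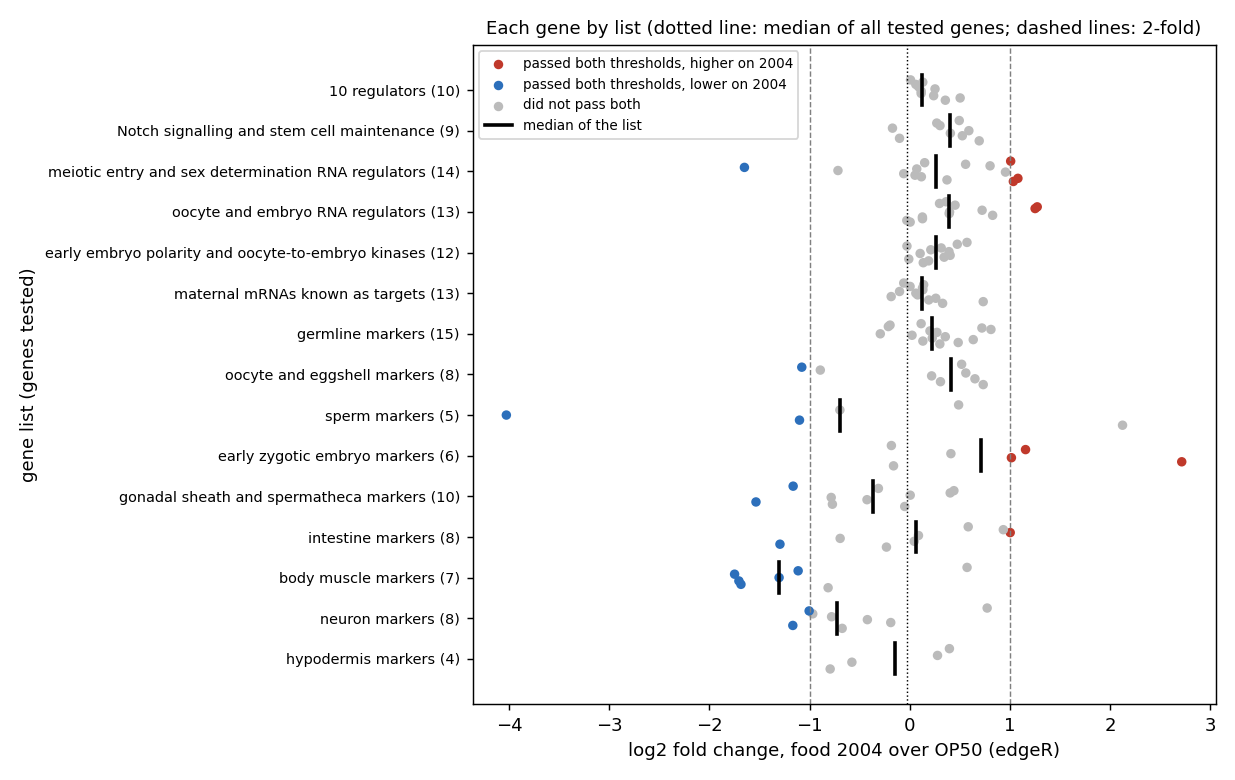
Log2 fold change of every tested gene of each list, food 2004 over OP50 (number tested in brackets), red where both thresholds were passed upwards, blue downwards and grey otherwise, with a bar at the list's median. The 10 regulators lie between 0.0086 and 0.50, all above the dotted line at the median of all tested genes, whereas the body muscle markers have a median of -1.3.

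Markers of other tissues differed between the foods, and their part in the results above was not tested. Their calls are read against 7.55% of all tested genes called higher and 14.8% called lower. At an adjusted p-value under 0.1 with any fold, the shares were 23.9% higher and 49.1% in either direction. The 15 germline markers, of which 0 passed both thresholds, summed to 2125 and 1760 normalized CPM with OP50 and to 2349 and 2335 with 2004, with a median log2 fold change of 0.22, or 0.13 without OP50 replicate 2. The body muscle markers summed to 1977 and 1649 with OP50 and to 646 and 622 with 2004, with 5 of 7 lower, led by *unc-27*, *unc-15*, *unc-54* and *mlc-3* with log2 fold changes from -1.75 to -1.30. With any fold, 6 were lower and 0 were higher at an adjusted p-value under 0.1. *hlh-1* lay the other way, at 0.57 (adjusted p = 0.262, edgeR). Neuron markers gave 2 of 8 lower, *unc-104* and *ric-4*, with sums of 310 to 333 with OP50 and 244 to 268 with 2004. At an adjusted p-value under 0.1 with any fold, 5 were lower and 1 was higher, *unc-119* at 0.77 (edgeR). Gonadal sheath and spermatheca markers gave 2 of 10 lower, *fkh-6* and *ipp-5*, with sums of 714 to 749 and 800 to 820. With any fold, 5 were lower and 2 were higher, *inx-22* at 0.40 and *fln-1* at 0.44 (edgeR). *fln-1* alone had 333 and 304 normalized CPM on OP50 against 427 and 438 on 2004.
Of 8 oocyte and eggshell markers, 6 had a log2 fold change above 0, with a median of 0.41 that ran from 0.21 without OP50 replicate 2 to 0.64 without OP50 replicate 1. 3 of them, *rme-2*, *egg-2* and *chs-1*, had an adjusted p-value under 0.1 with less than a 2-fold difference, at 0.73, 0.65 and 0.52, and 1 of the 8, *perm-4*, was called lower (edgeR), with *perm-2* at -0.89 (adjusted p = 0.0213, edgeR). Their sums, to which the eggshell genes *perm-2* and *perm-4* gave the most counts in the OP50 samples, were 11774 to 14690.1 with OP50 and 10975 to 11861 with 2004. Of 12 early zygotic markers, 6 were tested and 3 were called higher, *tbx-38*, *pes-10* and *ceh-51*. The summed level was 10.6 to 11.1 with OP50 and 14.4 to 17.2 with 2004. *tbx-38* had 9 and 0 counts on OP50 against 35 and 29 on 2004, and reached the filter in the 2004 samples alone. Not called were *ref-1*, *end-1* and *elt-7*, with log2 fold changes of 0.41, -0.16 and -0.18. Among the 12 listed, *med-1* had 0 counts in every library. Intestine markers gave 1 of 8 higher, *asp-1*, and 1 lower, *vit-5*, with sums of 94082 to 99417 and 65475 to 82273. The genes *vit-2*, *vit-5* and *vit-6* gave most of the counts in these sums. At an adjusted p-value under 0.1 with any fold, 3 were higher and 1 was lower (edgeR). The 3 included *act-5* at 0.93 and *ifb-2* at 0.58. Of the hypodermis markers, 0 of 4 passed both thresholds (edgeR), with sums of 536 to 674 and 418 to 466. *col-19* gave most of the counts in these sums. At an adjusted p-value under 0.1 with any fold, 2 were lower, *col-19* at -0.79 and *elt-3* at -0.58, and 1 was higher, *lin-26* at 0.40 (edgeR). The log2 fold change of *nhr-23* was also above 0, at 0.28.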

How the data were processed

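The authors inspected the reads with FastQC 0.11.8, trimmed them with Trim Galore 0.6.4, aligned them with HISAT2 2.1.0 to WBcel235, used SAMtools 1.7 for sorting and StringTie 2.1.1 for counting, per the labels and the methods. The deposited table gives estimated counts from StringTie for 57834 transcripts, whole numbers without normalization. The annotation release and strandedness are not given in the sources used here. Transcripts were joined to genes by sequence name, and 99.4% matched a single gene of the Ensembl annotation of WBcel235. At these depths a count of 0 allows 3 counts, or at most 0.0673 CPM, which covers counting error only.

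Counts summed per gene were tested with edgeR 4.0.16 (glmQLFit, glmQLFTest, R 4.3.3) after TMM normalization, over genes that reached 0.5 CPM in 2 or more samples, with food as the sole factor. Standard errors came from the F statistic of each gene, and 95% intervals, not adjusted over genes, from its degrees of freedom. The common dispersion was 0.0314, a coefficient of variation between replicates of 17.7%. Counts of replicates were further apart than sampling allows (chi-square over its degrees of freedom of 58.6 on OP50, 27.0 on 2004), so none was counted as a repeat. In simulated counts with 200 genes changed, edgeR recovered 15 at a log2 change of 0.5 with 7 false calls among 12218 genes, 122 at 1 with 45 false calls among 12187 genes, and 189 at 2 with 32 false calls among 12208 genes, at an adjusted p-value under 0.1. In the data 49.1% of all tested genes passed that p-value. The adjustment depends on that share, so the simulated recoveries do not measure recovery in these data. At each simulated size of change, false calls made up more of the edgeR calls than the 0.1 that the threshold is meant to allow. Alternatives were DESeq2 1.42.0, limma-voom (limma 3.58.1), RLE size factors, no scaling beyond library size, stricter and looser count filters, blocking by replicate number, a threshold of 0.05 on the adjusted p-value, glmTreat, scaling by germline markers, transcript counts and each sample left out in turn. Genes named from the lists are up to 4 per list past both thresholds with the largest change. Others were named after their values were seen. The members and lists were chosen with earlier results of these data known. Of the listed symbols, 1 oocyte regulator and 1 eggshell gene matched no row.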

Additional observations from a re-analysis of the deposited data

How the results depend on the processing

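The count of 0 of the 10 genes past both thresholds was 0 under every alternative run, including each sample left out in turn (edgeR, the lone sample of that food assumed to vary like the others). The number with an adjusted p-value under 0.1 at any fold was 1. It was 2 with DESeq2, 2 with 10 counts required in every sample, 4 with library size alone, 0 with RLE size factors, 0 without a filter, 0 with germline scaling and 0 at an adjusted p-value under 0.05, and from 0 to 6 without 1 sample, where leaving out OP50 replicate 1 gave 6 and each other sample 0. With the replicate number as a block it was 0. The sources do not say whether samples with the same number share a culture or batch. Their deviations had a correlation of -0.14, which cannot settle it. With the crossed pairing, chosen after seeing the data, the number of genes with an adjusted p-value under 0.1 was 2. The block left 923 genes higher and 1785 lower over the whole table, against 944 and 1851, and the crossed pairing 948 and 1845. With glmTreat the whole table gave 333 higher and 670 lower, the regulator lists 0 and 0, against 5 and 1, and the marker lists 0 and 5, against 4 and 13.

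Scaled by germline markers, the log2 fold changes below 0 were -0.030 for *oma-1*, -0.15 for *oma-2*, -0.14 for *puf-5*, -0.0087 for *mex-3*, -0.17 for *mex-5*, -0.20 for *mex-6*, -0.14 for *pos-1* and -0.26 for *pie-1*. Without 1 sample, the log2 fold changes ran from -0.052 to 0.31 for *oma-2*, -0.13 to 0.42 for *puf-5*, -0.14 to 0.37 for *mex-5*, -0.14 to 0.31 for *mex-6*, -0.014 to 0.30 for *pos-1*, -0.17 to 0.22 for *pie-1*, -0.0010 to 0.35 for *oma-1* with *oma-2* summed and -0.14 to 0.35 for *mex-5* with *mex-6* summed. The regulator lists gave from 1 gene higher without OP50 replicate 2 to 8 without OP50 replicate 1, and from 0 to 1 lower. The 1 gene lower, *fog-3*, was not called with DESeq2 (0) or with 10 counts in every sample (0), where it was not tested, nor without 2004 replicate 2. The cause of these shifts was not tested.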
